A study of Homo sapiens with 36 samples.

Results

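The genes described here are 8 ligands and surface enzymes through which tumor cells restrain immune cells, measured at the RNA level in A549 lung cancer cells under chronic IL-1β. They are CD274 (PD-L1), PDCD1LG2 (PD-L2), CD276 (B7-H3), NT5E (CD73), LGALS9 (galectin-9), PVR (CD155), NECTIN2 (CD112) and CD47, found in the count tables by their Ensembl identifiers, 8 of 63677 genes listed. In GRCh37 they lie on chromosome 9 (CD274, ENSG00000120217, and PDCD1LG2, ENSG00000197646), on chromosome 15 at 73976307 to 74006855 (CD276, ENSG00000103855), on chromosome 6 at 86159302 to 86205509 (NT5E, ENSG00000135318), on chromosome 17 at 25956824 to 25976586 (LGALS9, ENSG00000168961), on chromosome 19 at 45147098 to 45169430 (PVR, ENSG00000073008) and 45349432 to 45392480 (NECTIN2, ENSG00000130202), and on chromosome 3 at 107761938 to 107810709 (CD47, ENSG00000196776). A549 is an established human lung adenocarcinoma line, so every library comes from one cell line in culture. Cells were grown in standard medium with 1 ng/ml IL-1β and sampled on exposure days 6, 15 and 21. Cells exposed for 21 days were then kept without the cytokine and sampled on days 6, 15 and 30 of that withdrawal. Untreated A549 cells were sampled alongside at each of the 6 times, which gave 12 groups of 3 replicates and 36 libraries in all.

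Immune checkpoints are receptors on T cells, natural killer cells and macrophages that dampen an attack when they meet their ligand on another cell. PD-L1 and PD-L2 bind PD-1 on T cells, PVR and NECTIN2 bind TIGIT and related receptors, galectin-9 binds TIM-3, and CD47 binds SIRPα on macrophages as a "do not eat me" signal. B7-H3 is a relative of PD-L1 whose receptor is not settled, and CD73 is a surface enzyme that turns AMP into adenosine, which suppresses lymphocytes. PD-L1 is best known as a gene induced by interferon-γ through JAK and STAT proteins and IRF1, and NF-κB, which IL-1β activates, can also act on it. In lung adenocarcinoma, PD-L1 on tumor cells is a clinical marker for antibodies against the PD-1 axis.

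The libraries held 9116032 to 23570026 counts on genes, and the median was 15902700 in untreated and 15797345 in IL-1β libraries. Of the 36 libraries, 11 stood apart with 11.8% to 24.6% of their counts on mitochondrial genes, against 5.61% to 7.75% in the other 25. These 11 were 6 untreated and 5 IL-1β libraries, 8 of them carried replicate number 2 and 8 were collected after withdrawal, and results are given without them where that changes a call. All 8 genes passed the filter on low counts. For PDCD1LG2 the filter's level of 0.629 CPM (CPM being counts scaled to a common library size) was reached in 11 of 18 IL-1β libraries and in 0 of 18 untreated ones, so that its passing depended on the exposed libraries.

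Per length of transcript, the 8 genes fell into an abundant and a rare set in untreated cells. NECTIN2 was the most abundant, at 17.6 ± 4.98 CPM per kb of exon (SD, n = 18), followed by PVR at 11.1 ± 0.963. CD276 at 4.65 ± 0.57, CD47 at 4.56 ± 0.385 and NT5E at 3.32 ± 1.18 CPM per kb came next, and their ranges over libraries overlapped. The rare set held LGALS9 at 0.35 ± 0.137, CD274 at 0.212 ± 0.113 and PDCD1LG2 at 0.0209 ± 0.0295 CPM per kb. LGALS9 and CD274 overlapped in range. The ranges of NECTIN2 and PVR also overlapped, so their order did not hold in every library.

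With IL-1β, the order changed mainly through NT5E. In the 9 libraries of exposed cells NT5E reached 23.8 ± 6.62 CPM per kb, and it was the most abundant of the 8 transcripts in 6 of them and second in the others. In untreated cells it took a place between 3 and 5 in every library and was first in 0 of 18. It was first in 1 of 3 libraries at day 6 after withdrawal and in 1 of 3 at day 15, and at day 30 it was back at place 4 or 5. CD274 rose to 0.786 ± 0.259 CPM per kb during exposure and stayed below the 5 abundant transcripts. When the length of the MANE Select transcript, chosen after seeing the data, replaced the merged exons, NT5E kept its place in the pooled means. Those are the means over all untreated, all exposure and all withdrawal libraries. In single groups it moved from place 2 to 3 at day 6 of exposure and from 1 to 2 at day 6 after withdrawal. In the untreated cells sampled at day 6 after withdrawal it moved from 3 to 5. LGALS9 changed most in length, from 5.71 to 1.72 kb. Its untreated mean became 1.16 CPM per kb, against 0.24 for CD274. In the withdrawal pool LGALS9 moved from place 8 to 6 and CD274 from 6 to 7.

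**Figure D1:**
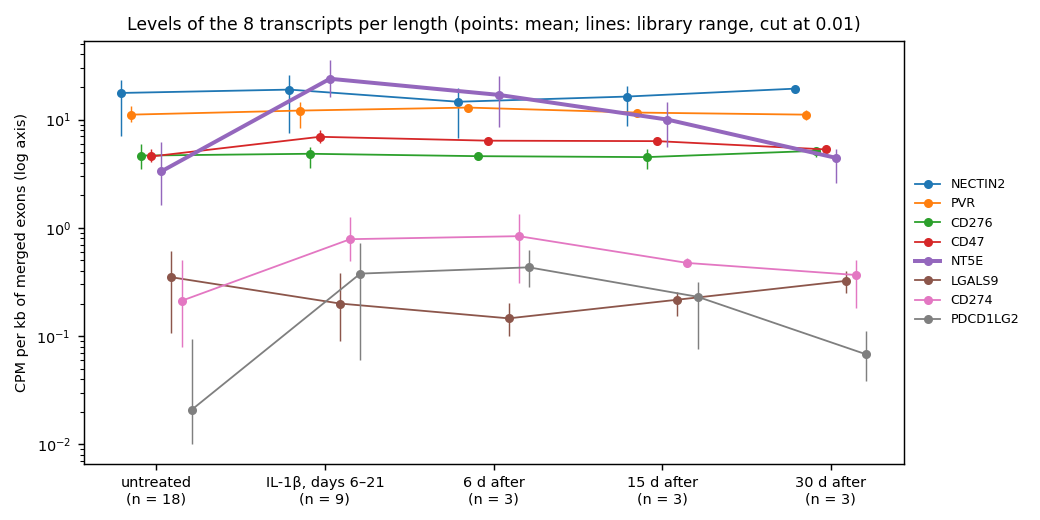
Levels of the 8 transcripts in CPM per kb of merged exon (log axis) in untreated cells, in cells exposed to IL-1β and at 3 times after withdrawal. Points are means and vertical lines run from the lowest to the highest library, cut at 0.01; NT5E climbs from 3.32 to 23.8 and returns to 4.43, while NECTIN2, PVR and CD276 stay level.

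CD274, the ligand of PD-1, was higher in IL-1β cells at all 3 times of exposure and at day 6 after withdrawal. At day 6 the untreated libraries held 0.327, 0.957 and 0.591 CPM and the exposed libraries 2.14, 2.05 and 2.53. At day 15 they held 0.71, 0.542 and 0.693 CPM against 3.56, 3.02 and 5.17. At day 21 the values were 0.627, 1.15 and 0.996 CPM against 4.24, 3.89 and 2.46. The groups did not overlap at any of the 3 times, and the 2 sets of libraries were furthest apart at day 15.

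After withdrawal the mean CD274 level of previously exposed cells was 3.44 CPM at day 6, 1.95 at day 15 and 1.51 at day 30, beside 3.53 at day 21 of exposure. The response at day 30 after withdrawal did not differ past the thresholds from that at day 21 (-1.19 ± 0.71, edgeR adjusted p = 0.947). At day 6 the untreated libraries held 0.516, 1.21 and 0.644 CPM and the previously exposed ones 3.6, 5.45 and 1.27, so the lowest of these stood just above the highest control. At day 15 the values were 0.974, 0.816 and 1.83 CPM against 1.8, 2.18 and 1.86, and at day 30 they were 0.699, 2.06 and 0.344 against 1.7, 2.08 and 0.748. The groups overlapped at both of these times, and the highest untreated library at each was one with a high mitochondrial share. Behind these values lay 4 to 25 counts in untreated and 16 to 78 counts in IL-1β libraries. As in any bulk culture, fewer cells carrying a transcript and less RNA per cell cannot be told apart.

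**Figure D2:**
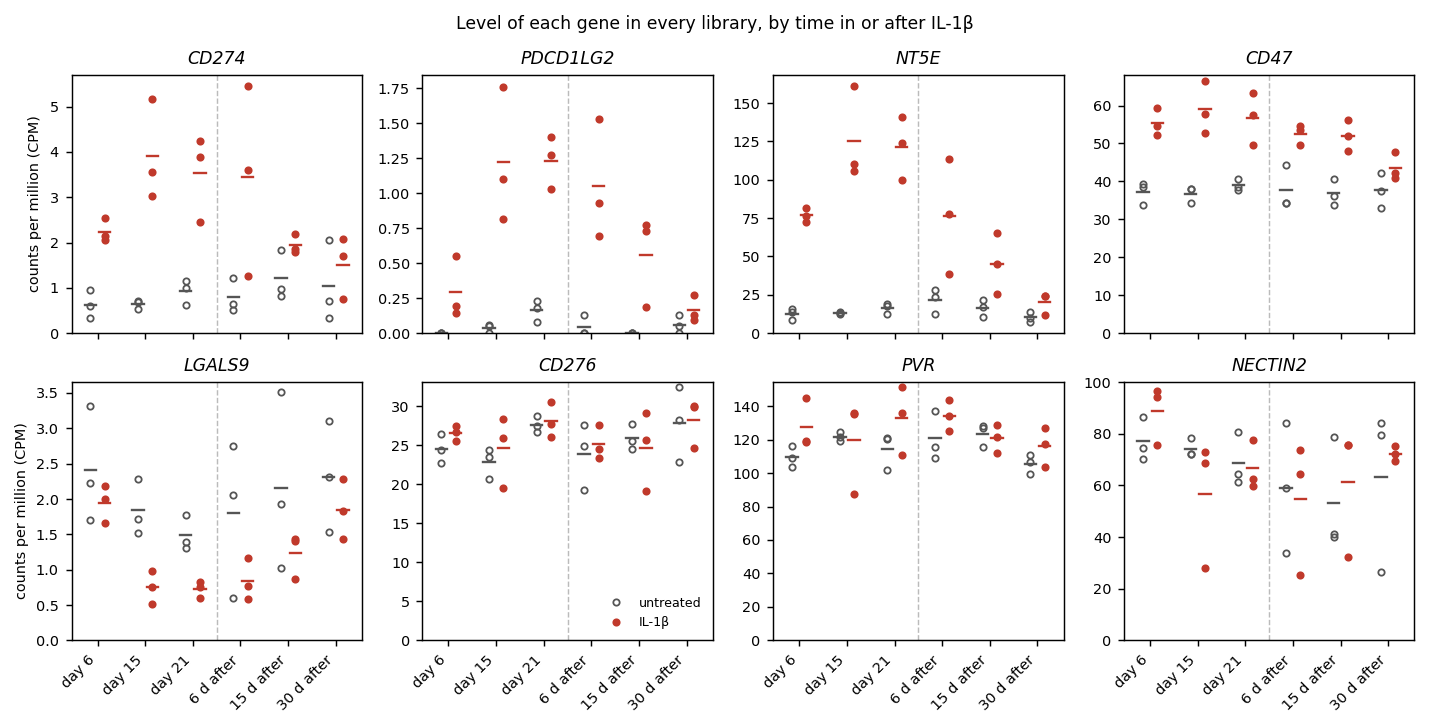
CPM of each gene in every library, by day of IL-1β exposure (left of the dashed line) and by days after withdrawal (right of it). Open grey circles are untreated and filled red circles IL-1β libraries, with short lines at the means; CD274, PDCD1LG2, NT5E and CD47 separate from the controls during exposure and approach them by day 30 after withdrawal.

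The fitted CD274 fold changes were 3.67 at day 6 (log2 1.87 ± 0.53, SE), 5.92 at day 15 (2.57 ± 0.5) and 3.78 at day 21 (1.92 ± 0.48). Their adjusted p-values from edgeR's quasi-likelihood test were 0.0357, 0.000944 and 0.0096. At day 6 after withdrawal the fold change was 4.2 (log2 2.07 ± 0.51, edgeR adjusted p = 0.0201). At days 15 and 30 it was 1.63 (95% interval 0.799 to 3.31) and 1.66 (0.791 to 3.48), with edgeR adjusted p-values of 0.801 and 0.78. These intervals hold both no difference and one of over 3-fold, so a remaining rise was not detectable at this depth. Averaged over the 3 exposure times the log2 fold change was 2.12 ± 0.29 (edgeR adjusted p = 1.97e-06), and over the 3 withdrawal times 1.17 ± 0.3 (edgeR adjusted p = 0.00993). The difference of these means, -0.95 ± 0.41, did not pass (edgeR adjusted p = 0.358). Without the replicate 1 libraries, which leaves 2 per group, none of the 4 single-time calls passed (log2 fold change 1.56 to 2.72, edgeR adjusted p from 0.11 to 0.841), nor did the withdrawal mean (0.94, edgeR adjusted p = 0.508), whereas the exposure mean did (1.96, edgeR adjusted p = 0.00952). Without the libraries of high mitochondrial share, the call at day 6 after withdrawal was lost (log2 1.93, edgeR adjusted p = 0.08), as it was without replicate 2 (2.0, edgeR adjusted p = 0.124), and that at day 6 of exposure was lost without replicate 3 (1.77, edgeR adjusted p = 0.105).

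**Figure D3:**
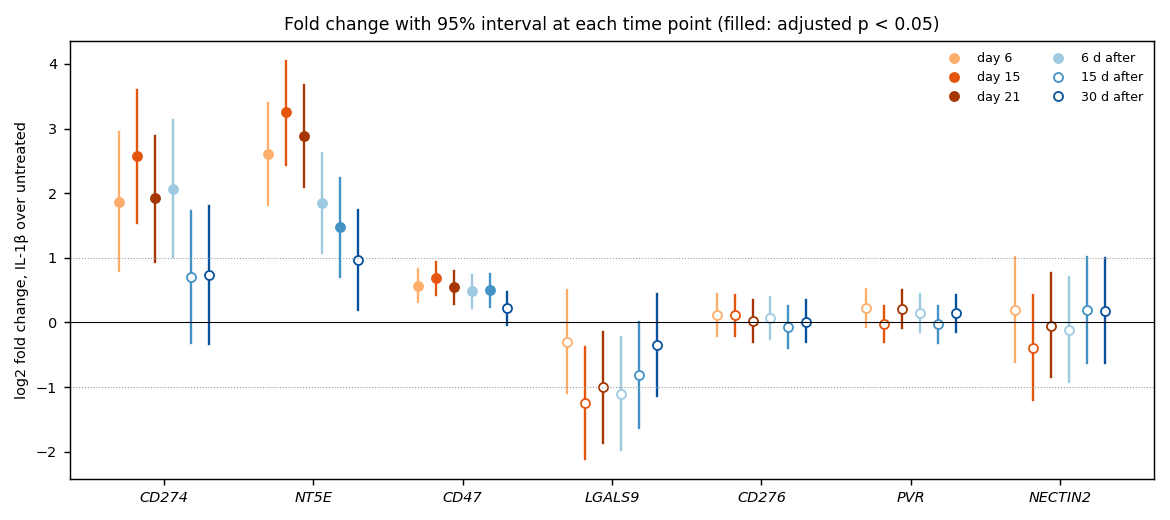
Log2 fold change of IL-1β over untreated cells with its 95% interval for 7 of the 8 genes at the 6 time points, filled where the adjusted p is under 0.05. PDCD1LG2 is left out since its controls were at or near 0 counts; CD274 and NT5E exceed the dotted line at 1 during exposure, CD47 stays under it, and CD276, PVR and NECTIN2 lie around 0.

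PDCD1LG2, the other ligand of PD-1, was nearly absent from untreated cells and was read in all 18 IL-1β libraries. At day 6 of exposure it had 0, 0 and 0 counts in the untreated libraries and 8, 2 and 4 in the exposed ones. At day 15 it had 1, 1 and 0 against 22, 14 and 17 counts, and at day 21 it had 4, 3 and 2 against 19, 17 and 34. The groups did not overlap at any of these times, and the pooled level of the exposed libraries was 0.287 CPM at day 6, 1.13 CPM at day 15 and 1.25 CPM at day 21.

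After withdrawal, PDCD1LG2 stayed higher in every previously exposed library than in every untreated one until day 15. It had 1, 0 and 0 counts against 28, 8 and 12 at day 6, and 0, 0 and 0 against 12, 10 and 4 at day 15. At day 30 it had 1, 1 and 0 counts against 4, 2 and 2, which overlapped in CPM. The pooled level of previously exposed cells was 1.09, 0.512 and 0.155 CPM at the 3 times.

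Where untreated cells had no count, the fold was set against 3 counts over the control group. On this floor PDCD1LG2 was at least 4.19-fold higher at day 6 of exposure and at least 5.98-fold higher at day 15 after withdrawal. The pooled ratio was 31.4 (95% counting interval 8.28 to 266.3) at day 15, 8.21 (4.08 to 18.7) at day 21 and 46.3 (7.92 to 1865.7) at day 6 after withdrawal. At day 30 after withdrawal it was 3.63 (0.724 to 35.1). These intervals and floors cover counting error only. PDCD1LG2 entered the test only through its IL-1β libraries, so its p-values are given as a description and support nothing further. The edgeR adjusted p-values were 0.0256, 0.000154 and 0.00191 at the exposure times and 0.00127, 0.0177 and 0.739 at the withdrawal times. The calls at day 6 of exposure and day 15 after withdrawal were lost without the libraries of high mitochondrial share (edgeR adjusted p = 0.0661 and 0.487). Without replicate 1 the call at day 15 of exposure was the only one of the 5 kept, and without replicate 2 those at day 6 of exposure and at days 6 and 15 after withdrawal were lost. The same 3 were lost when each time point was fitted separately (edgeR adjusted p = 0.0931, 0.146 and 0.448).

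CD274 and PDCD1LG2 lie next to each other on the same strand of chromosome 9, 40.0 kb apart in GRCh37, at 5450503 to 5470566 and 5510531 to 5571282. Within 500 kb of CD274, 34 genes are annotated, those 2 included, of which 10 could be tested. Besides the 2 ligands, INSL4, an insulin-like peptide gene, was the only tested gene past both thresholds at any time, and it was lower in IL-1β cells at all 6 (log2 fold change from -3.05 to -1.69). JAK2, a kinase of interferon signaling, was 0.55 higher on the log2 scale in the exposure mean (edgeR adjusted p = 0.0279), without passing 2-fold at any time, and RIC1 was 0.21 higher (edgeR adjusted p = 0.0165). PLGRKT, a plasminogen receptor gene 12.6 kb from CD274, gave 0.01 (edgeR adjusted p = 0.98). The remaining 4 tested genes had no adjusted p under 0.05 in the exposure mean. The neighbours named here were chosen after their values were seen.

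The 250 bases before the annotated start are shown for CD274, NT5E and CD47, whose levels were higher with IL-1β, and for PVR, which did not differ. The sequences are those of RefSeq on GRCh38.p14, given 5′ to 3′ on the strand of the gene, and cover chr9:5450292-5450541 for CD274, chr6:85449833-85450082 for NT5E, chr3:108091032-108091281 for CD47 (minus strand) and chr19:44643660-44643909 for PVR. Capitals mark matches, on either strand and with overlaps joined, of 5 short motifs searched.
CD274: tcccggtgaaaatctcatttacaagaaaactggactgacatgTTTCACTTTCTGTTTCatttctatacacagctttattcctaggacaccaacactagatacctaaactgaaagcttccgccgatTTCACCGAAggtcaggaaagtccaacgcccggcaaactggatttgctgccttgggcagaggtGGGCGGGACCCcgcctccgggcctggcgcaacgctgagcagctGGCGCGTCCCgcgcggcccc
NT5E: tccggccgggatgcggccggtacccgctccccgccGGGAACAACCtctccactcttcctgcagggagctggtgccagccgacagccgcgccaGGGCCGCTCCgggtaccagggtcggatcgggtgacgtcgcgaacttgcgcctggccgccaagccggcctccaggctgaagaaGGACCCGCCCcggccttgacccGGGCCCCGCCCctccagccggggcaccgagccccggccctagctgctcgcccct
CD47: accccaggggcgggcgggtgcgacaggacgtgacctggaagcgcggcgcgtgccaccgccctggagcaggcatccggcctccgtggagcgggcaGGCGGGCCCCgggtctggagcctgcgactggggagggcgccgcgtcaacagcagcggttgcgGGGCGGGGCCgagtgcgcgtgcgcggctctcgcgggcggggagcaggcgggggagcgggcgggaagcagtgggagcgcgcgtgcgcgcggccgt
PVR: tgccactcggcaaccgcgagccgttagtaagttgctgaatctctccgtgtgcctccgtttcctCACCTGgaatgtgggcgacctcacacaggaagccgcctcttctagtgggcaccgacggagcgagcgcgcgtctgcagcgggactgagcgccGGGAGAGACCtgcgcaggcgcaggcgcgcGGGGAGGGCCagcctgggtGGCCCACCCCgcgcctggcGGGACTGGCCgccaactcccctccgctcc

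The motifs were GGG and CC with any 5 bases between them, a loose form of the NF-κB site, TGANTCA for AP-1, a pair of GAAA with any 2 bases between them for interferon regulatory factors, TTCNNNGAA for STAT proteins and CACCTG for the E-box that SLUG and ZEB proteins bind. RefSeq promoters were found for 7 of the 8 genes, PDCD1LG2 having none. The NF-κB letters stood in the promoters of all 7, but also in 54.4% of the 34788 promoters searched. CD274 was the only one of the 7 with the interferon regulatory factor letters, present as a pair of overlapping matches on the opposite strand and found in 3.02% of all promoters. It was also the only one with TTCNNNGAA, found in 6.57%. None of the 7 held TGANTCA (6.59% of all promoters), and PVR alone held CACCTG (17.5%). These matches describe letters in this window and show neither a bound site nor a cause.

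NT5E, the surface enzyme that makes adenosine, rose at all 3 times of exposure and was still higher until day 15 of withdrawal. At day 6 the untreated libraries held 13.8, 15.7 and 8.39 CPM and the exposed libraries 72.6, 76.1 and 81.6. At day 15 the exposed libraries held 110.2, 105.4 and 160.9 CPM, and at day 21 they held 123.9, 141.1 and 99.8, while untreated cells stayed between 12.4 and 18.9 CPM. Every exposed library lay above every untreated one at each of these times.

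After withdrawal the groups stayed apart until day 15. At day 6 the untreated libraries held 23.9, 28.0 and 12.2 CPM and the previously exposed ones 77.8, 113.3 and 38.8. At day 15 the values were 17.1, 21.3 and 10.4 CPM against 45.1, 65.5 and 25.4. At day 30 they were 7.42, 13.9 and 9.84 CPM against 24.2, 24.4 and 11.7, and here the groups overlapped. In untreated cells NT5E had a median of 18.5 CPM in the 6 libraries of high mitochondrial share and of 13.1 CPM in the other 12, and with this share as a covariate no NT5E call at a single time was lost.

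The NT5E fold changes during exposure were 6.09, 9.49 and 7.38 (log2 2.61 ± 0.39, 3.25 ± 0.39 and 2.88 ± 0.39), with edgeR adjusted p-values of 3.98e-05, 1.49e-06 and 5.8e-06. After withdrawal they were 3.6, 2.78 and 1.96 (log2 1.85 ± 0.38, 1.48 ± 0.37 and 0.97 ± 0.38), with edgeR adjusted p-values of 0.00351, 0.0386 and 0.362. Relative to the day 15 peak, 56.9%, 45.5% and 29.8% of the log2 fold change was left at days 6, 15 and 30 after withdrawal. The exposure mean of 2.91 ± 0.22 exceeded the withdrawal mean of 1.43 ± 0.22, and the difference of -1.48 ± 0.3 passed the test (edgeR adjusted p = 0.00346). Of the 8 genes, NT5E was the only one called, and lower, against 0.574% of all tested genes. PDCD1LG2 was tested and not called. Its difference is not given, since the SE, derived from the fold change and the test statistic, was not usable. The PDCD1LG2 exposure and withdrawal means in the fit were 4.32 ± 0.53 and 4.3 ± 0.67. Each takes in a time at which all 3 untreated libraries had 0 counts, so neither their size nor their likeness is a measured result. The 3 exposure calls of NT5E held in every omission of a replicate. The calls at days 6 and 15 after withdrawal were lost without replicate 1 and without replicate 2 (edgeR adjusted p from 0.0774 to 0.742) and in separate fits of each time point (0.298 and 0.407), the difference of means and the withdrawal mean were lost without replicate 1 (-1.68 and 1.34, edgeR adjusted p = 0.247 and 0.0508), and the call at day 15 was lost without the libraries of high mitochondrial share (1.04, edgeR adjusted p = 0.579).

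No other gene of the adenosine pathway passed both thresholds upward. Of 15 other genes of adenosine metabolism and signaling, 10 were tested, 0 passed both thresholds at any single time, and their median log2 fold change lay between -0.26 and 0.13 at the 6 times, beside -0.02 to 0.02 over all tested genes. In the exposure mean 2 of the 10 passed both thresholds, SLC29A2 (-1.16 ± 0.25, edgeR adjusted p = 0.00107), a nucleoside transporter, and ADORA1 (-1.31 ± 0.42, edgeR adjusted p = 0.0322), an adenosine receptor, and both were lower. These 2 names were chosen after their values were seen.

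CD47, which inhibits engulfment by macrophages, was higher by a small and steady amount. The untreated libraries held 39.2, 33.9 and 38.5 CPM at day 6, and the exposed ones 54.5, 59.3 and 52.3. At days 15 and 21 the untreated libraries ranged from 34.3 to 40.6 CPM and the exposed ones from 49.7 to 66.5. At days 6 and 15 after withdrawal they ranged from 33.8 to 44.3 CPM against 48.0 to 56.2. All 3 IL-1β libraries exceeded all 3 controls at each of these 5 times. At day 30 after withdrawal the values were 33.1, 42.2 and 37.6 CPM against 47.7, 42.3 and 40.9, which overlapped.

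CD47 stayed below the 2-fold limit throughout, with log2 fold changes of 0.57, 0.68 and 0.55 at the exposure times and 0.48, 0.5 and 0.22 at the withdrawal times (SE 0.12 to 0.13). The edgeR adjusted p-values were 0.00436, 0.000484, 0.00456, 0.03, 0.0368 and 0.709. The exposure mean was 0.6 ± 0.07 (edgeR adjusted p = 2.41e-07) and the withdrawal mean 0.4 ± 0.07 (edgeR adjusted p = 0.000314), and the difference of -0.2 ± 0.1 did not pass (edgeR adjusted p = 0.464). At day 6 of exposure and at days 6 and 15 after withdrawal the edgeR adjusted p exceeded 0.05 in every omission of a replicate. The lowest there were 0.0564, 0.091 and 0.255, and the highest was 1.0 at day 6 after withdrawal without replicate 1. At days 15 and 21 of exposure it exceeded 0.05 in at least 1 omission (up to 0.128 and 0.35). The withdrawal mean was lost without replicate 1 (0.34, edgeR adjusted p = 0.169), while the exposure mean passed in every omission. Without the filter on low counts the p at days 6 and 15 after withdrawal also exceeded 0.05 (0.281 and 0.226).

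Of 8 other genes of the CD47 axis, 7 were tested. QPCT, an enzyme that modifies the start of secreted and surface proteins, was past both thresholds at the 3 exposure times, with 37.4 ± 10.5 CPM against 12.8 ± 1.64 (SD, n = 3) at day 6 and log2 fold changes of 1.54, 1.38 and 1.39. At the withdrawal times it gave 0.58, 0.67 and 0.07, none of which passed, and its response was smaller than during exposure (difference -0.99 ± 0.25, edgeR adjusted p = 0.0274). THBS1, the extracellular ligand thrombospondin-1, reached a log2 fold change of 1.0 ± 0.25 at day 6 after withdrawal (edgeR adjusted p = 0.018), and, like the next gene, it was chosen after its value was seen. CALR, the engulfment signal that CD47 opposes, gave 0.13 ± 0.12 in the exposure mean (edgeR adjusted p = 0.656). QPCTL, on the same list as QPCT, gave -0.21 ± 0.23 there (edgeR adjusted p = 0.699) and was also named after its value was seen.

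LGALS9 was the one gene of the 8 that was lower in IL-1β cells, at a low level that limits its reading. At day 15 the untreated libraries held 1.72, 1.52 and 2.28 CPM and the exposed ones 0.751, 0.988 and 0.517. At day 21 they held 1.77, 1.39 and 1.31 CPM against 0.76, 0.599 and 0.821. The groups did not overlap at these 2 times and overlapped at the other 4. No single time passed, with log2 fold changes between -1.24 and -0.3 and edgeR adjusted p-values between 0.0807 and 0.942. The exposure mean was -0.85 ± 0.24 (edgeR adjusted p = 0.0117) and the withdrawal mean -0.76 ± 0.23 (edgeR adjusted p = 0.0437), against 7.81% and 3.28% of tested genes that were lower at this p alone. Both were lost without replicate 1 (edgeR adjusted p = 0.231 and 0.711) and without replicate 3 (0.113 and 0.272). With the libraries of high mitochondrial share left out, LGALS9 passed both thresholds at day 15 (-1.09, edgeR adjusted p = 0.0121), at day 6 after withdrawal (-1.51, 0.0108) and in the withdrawal mean (-1.06, 0.000355), and passed the p alone at day 21 (-0.88, 0.045). Day 6 after withdrawal also passed with the mitochondrial covariate (-1.27, edgeR adjusted p = 0.0421), though not with covariate and block (-1.25, 0.0618).

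LGALS9 has near-identical copies, LGALS9B and LGALS9C, between which short reads may be split, and the copies had counts of a like order. In the 9 untreated libraries of the exposure times LGALS9 stood at 1.91 ± 0.618, LGALS9B at 0.953 ± 0.37 and LGALS9C at 0.676 ± 0.231 CPM (SD). In the exposed libraries they stood at 1.14 ± 0.634, 0.938 ± 0.597 and 1.01 ± 0.513 CPM. With the 3 copies summed, the log2 ratio of the group means shrank from -0.74 to -0.2 during exposure and turned from -0.68 to 0.07 after withdrawal, so the lower level of galectin-9 RNA is uncertain.

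CD276, PVR and NECTIN2, the 3 abundant ligands of the B7 and nectin families, did not pass the test at any time. CD276 ranged from 19.3 to 32.5 CPM in untreated and from 19.2 to 30.5 CPM in IL-1β libraries. Its exposure mean was a log2 fold change of 0.08 (95% interval -0.1 to 0.27) and its withdrawal mean 0.0 (-0.18 to 0.19), with edgeR adjusted p-values of 0.693 and 0.984. PVR ranged from 99.2 to 137.3 CPM in untreated and from 87.3 to 151.4 CPM in IL-1β libraries. Its exposure mean was 0.14 (-0.03 to 0.3) and its withdrawal mean 0.09 (-0.08 to 0.25), with edgeR adjusted p-values of 0.355 and 0.602. The upper limit of the 95% interval of the exposure mean was a 1.21-fold higher level for CD276 and a 1.23-fold higher level for PVR.

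NECTIN2 varied more between libraries than between groups. In the 25 libraries of low mitochondrial share it ranged from 59.9 to 96.6 CPM with a median of 75.5, and in the 11 libraries of high share from 25.4 to 72.0 CPM with a median of 40.1. Its exposure mean was -0.08 (-0.54 to 0.39) and its withdrawal mean 0.09 (-0.38 to 0.56), with edgeR adjusted p-values of 0.916 and 0.86. Without the libraries of high share the values were 0.04 and -0.17, again without passing. The 95% interval of the withdrawal mean reached a 1.47-fold higher level. With the share as a covariate the withdrawal mean was -0.05 (edgeR adjusted p = 0.903).

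**Figure D4:**
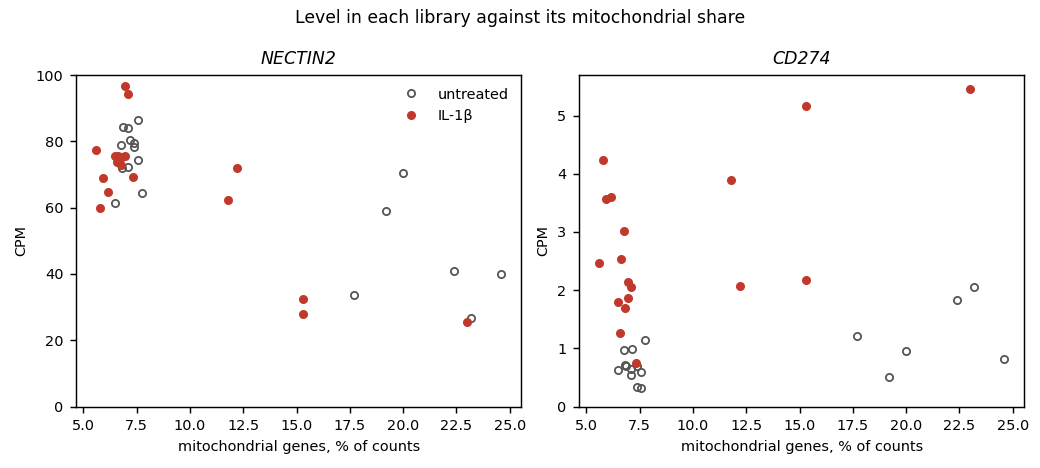
CPM of NECTIN2 (left) and CD274 (right) in each of the 36 libraries against the percentage of the library's counts on mitochondrial genes, with untreated libraries as open and IL-1β libraries as filled circles. NECTIN2 falls from a median of 75.5 to 40.1 where the share is high in either group, and untreated CD274 has a median of 1.08 in libraries of high and 0.668 in libraries of low share.

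Counted over the 8 genes, 3 were past both thresholds and higher at day 6, day 15, day 21 and day 6 after withdrawal, 2 at day 15 after withdrawal and 0 at day 30. The shares of all tested genes that were past both thresholds and higher were 1.52%, 1.94%, 2.19%, 1.08%, 0.594% and 0.433% at these times. The called genes were CD274, PDCD1LG2 and NT5E, except that CD274 dropped out at day 15 after withdrawal. PDCD1LG2 had passed the filter only through its IL-1β libraries, and without it the counts were 2, 2, 2, 2, 1 and 0. At day 30 NT5E alone had an unadjusted edgeR p under 0.05, 1 of the 8, and DESeq2 called 0 as well. None of the 8 was called lower at a single time in the fit of all libraries. All 3 IL-1β libraries lay above all 3 controls for 5 of the 8 genes at day 6, where PVR was the fifth, against 10.6% of all tested genes, and for 4 at days 15 and 21, against 11.5% and 13.8%. The counts after withdrawal were 4 at day 6 and 3 at day 15, against 5.51% and 6.02%. LGALS9 lay below all controls at days 15 and 21, as did 13.9% and 15.2% of all genes. In the exposure and withdrawal means 3 genes were past both thresholds and higher, against 2.51% and 1.43%, and at an adjusted p alone CD47 was the fourth, against 7.54% and 4.43%. PDCD1LG2, which was tested only through its IL-1β libraries, is in each of these counts for the means and of libraries above all controls.

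The response of the 8 genes did not differ past the thresholds between day 21 and day 6, between day 6 after withdrawal and day 21, or between day 30 after withdrawal and day 21. For the first 2 of these comparisons 0 of 8 had an unadjusted edgeR p under 0.05, and DESeq2 called 0. For the last, NT5E gave -1.92 ± 0.53 (unadjusted p = 0.00107, edgeR adjusted p = 0.107), and DESeq2, the replicate block and the mitochondrial covariate each called this 1 gene. The shares of all tested genes called in these comparisons were 0.0104%, 0.136% and 0.626%. Between untreated cells sampled with day 30 of withdrawal and with day 6 of exposure, 0 of the 8 genes were called (0 with an unadjusted edgeR p under 0.05, DESeq2 also 0), while 0.0104% of all genes were called.

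Among 23 known regulators of PD-L1 transcription, all of which were tested, 4, 5 and 4 were past both thresholds at days 6, 15 and 21, 3 at day 6 after withdrawal and 0 afterwards, and every one of them was higher. Of all tested genes, 1.52%, 1.94%, 2.19%, 1.08%, 0.594% and 0.433% were past both thresholds and higher at the 6 times. The list had medians of 0.4, 0.41 and 0.4 on the log2 scale with IL-1β and of 0.21, 0.27 and 0.24 once it was removed, beside -0.02 to 0.02 over all tested genes. The 5 genes called at 2 or more times were SNAI2, FOSL1, ZEB2, JUN and IFNGR1. The study itself reported a rise of SLUG, ZEB2, Fra-1 (FOSL1) and c-JUN with IL-1β in A549 cells. Since the list was chosen with earlier results known, these calls are a description and give no separate support. SNAI2, which encodes the repressor SLUG, rose from 2.38 ± 0.709 to 22.3 ± 9.08 CPM (SD, n = 3) at day 21, a log2 fold change of 3.23 ± 0.49 (edgeR adjusted p = 3.3e-05). ZEB2, another repressor of epithelial genes, gave 1.36, 2.51 and 2.08 during exposure and 1.43 at day 6 after withdrawal. JUN and FOSL1, subunits of AP-1, gave 1.98 ± 0.32 and 2.62 ± 0.55 at day 21 (edgeR adjusted p = 9.27e-05 and 0.00213).

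IFNGR1, a chain of the interferon-γ receptor, responded less after withdrawal than during exposure. It gave log2 fold changes of 1.34, 1.17 and 0.95 with IL-1β and of 0.18, 0.27 and 0.11 without it, and the 2 means differed by -0.97 ± 0.18 (edgeR adjusted p = 0.00111). The same difference did not pass for SNAI2 (-0.94 ± 0.38, edgeR adjusted p = 0.304), FOSL1 (-0.95 ± 0.43, 0.388), ZEB2 (-0.99 ± 0.32, 0.126) or JUN (-0.84 ± 0.26, 0.0887). Of the interferon and NF-κB genes themselves, chosen after their values were seen, NFKB1 was 0.76 ± 0.07 higher in the exposure mean (edgeR adjusted p = 5.38e-10) and IRF1 0.62 ± 0.12 higher (edgeR adjusted p = 0.000173). Among 12 regulators of the PD-L1 protein, 1 passed both thresholds at any time, B3GNT3, a glycosyltransferase, at day 15 (-1.42 ± 0.44, edgeR adjusted p = 0.0484), named after its value was seen.

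**Figure D5:**
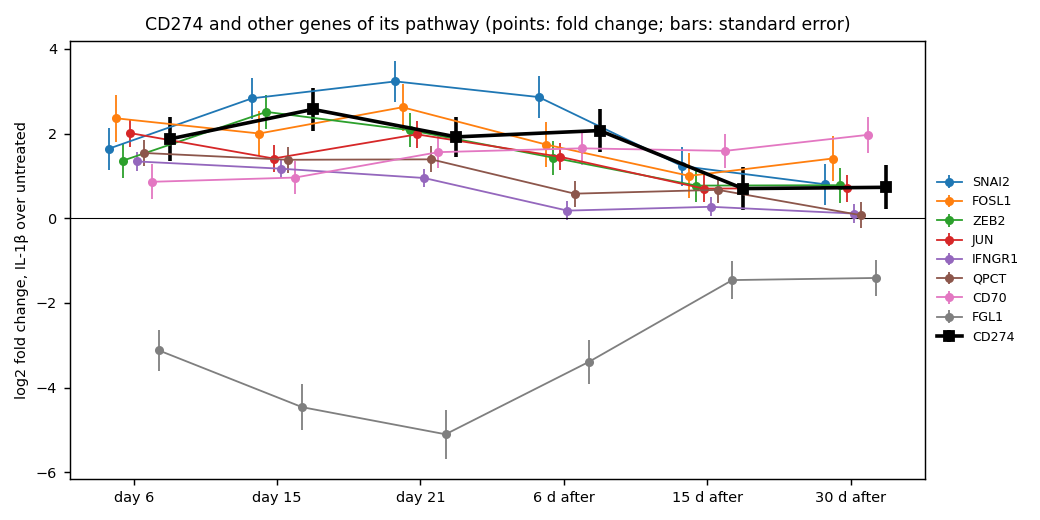
Log2 fold change of IL-1β over untreated cells, with standard error, at the 6 time points for CD274 (black squares) and for 8 genes from the lists of its regulators, the CD47 axis and other ligands. SNAI2, FOSL1, ZEB2 and JUN are highest between day 6 and day 6 after withdrawal, CD70 reaches 1.97 at day 30 after withdrawal, and FGL1 reaches -5.1 at day 21.

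Outside the 8 genes, 23 of 24 further checkpoint ligands were matched and 15 tested, and 2 were called at 2 or more times, in opposite directions. FGL1, a secreted ligand of LAG-3, fell from 7.48 ± 1.2 to 0.204 ± 0.0495 CPM (SD, n = 3) at day 21, a log2 fold change of -5.1 ± 0.58 (edgeR adjusted p = 4.93e-07). It was past both thresholds at the 3 exposure times and at day 6 after withdrawal, and its withdrawal mean of -2.08 was nearer to 0 than its exposure mean of -4.23 (difference 2.14 ± 0.41, edgeR adjusted p = 0.00199). CD70, the ligand of CD27, was called from day 21 on, including day 30 after withdrawal, where it stood at 3.78 ± 0.802 against 0.869 ± 0.551 CPM (log2 1.97 ± 0.42, edgeR adjusted p = 0.011). The median log2 fold change of the 15 genes lay between -0.08 and 0.21 at the 6 times.

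Over the 18 differences of log2 CPM between IL-1β and untreated libraries of the same time and number, the 11700 genes with a mean log2 CPM of at least 2 were ranked by their likeness to CD274. The 5 most alike were LRRC8C (Pearson r = 0.84), CCDC50 (0.83), TMEM237 (0.83), CYP1B1 (0.83) and PTPRK (0.82), and none of them was past both thresholds at any time. Of the other 7 genes, NT5E was the most alike (0.7), followed by PDCD1LG2 (0.58) and CD47 (0.5), while CD276 (0.07), PVR (-0.13), LGALS9 (-0.37) and NECTIN2 (-0.61) were not. The libraries were matched by replicate number, although the labels state no shared batch or culture. The 18 points also share 6 control groups and their mitochondrial shares differ, so the values are descriptive.

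Most markers of immune cells had few or no counts, and listed receptor genes of immune cells were low or absent. That list of 11 was not limited to receptors of the 8 ligands, since it held genes such as CTLA4 and CD28. SIRPA, the gene of the CD47 receptor SIRPα, was on the CD47 list instead. Of these 11 genes, 6 stayed under 1 CPM in all libraries, while PVRIG reached 5.28 and HAVCR2, the gene of TIM-3, 1.91 CPM. PDCD1 had 0 counts in all 36, and PVRIG was called once (-1.28 ± 0.39 at day 21, edgeR adjusted p = 0.0496). These genes were named after their values were seen. Of 10 immune markers, 8 stayed under 1 CPM in all libraries, and CD3E and TYROBP had 0 counts in all 36. The summed level of the 10 ranged from 2.06 to 10.9 CPM in untreated and from 3.27 to 17.4 CPM in IL-1β libraries, most of it CD14, which ranged from 1.67 to 16.4 CPM. Of 8 fibroblast and endothelial markers, 7 were matched and 6 of them stayed under 1 CPM; COL1A1 was called at days 6 and 21 (1.02 ± 0.3 and 1.24 ± 0.29). The 10 markers of A549 and epithelial cells summed to between 10996.8 and 18849.0 CPM in untreated libraries and between 5000.9 and 14376.4 in IL-1β libraries, and KRT8, KRT18, CDH1, AKR1B10 and ALDH1A1 were past both thresholds and lower at 3 or 4 times. EPCAM stayed between 0.232 and 1.63 CPM and KRT19 under 1 CPM, so these 2 defining epithelial genes were nearly absent. The part of the shift in epithelial genes in the results on the 8 ligands was not tested.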

How the data were processed

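RNA of A549 cells was sequenced from 36 libraries in 12 groups. Per the labels, libraries were made with the KAPA stranded mRNA kit. The authors deposited raw counts per Ensembl gene for each library, on GRCh37, not normalized. The submitters' processing notes name bcl2fastq 2.17, TopHat2 2.0.14, Bowtie2 2.2.5 and HTSeq 0.6.1. The strand setting and the annotation release are not given in the sources used here. Reads on no gene (8.48% to 18.6%) and ambiguous reads (2.62% to 4.18%) were left out. The labels call the replicates biological but name no separate cultures, so p-values measure the spread between these libraries, which may be technical.

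From the counts, genes passing edgeR's filterByExpr (19180 of 39471 with any count) were scaled by TMM and fitted jointly over the 36 libraries by edgeR's quasi-likelihood method, 1 term per group (24 residual degrees of freedom). P-values carry Benjamini-Hochberg adjustment over all genes tested. Both thresholds stands for more than 2-fold at an adjusted p below 0.05. Fold changes are IL-1β over untreated. The exposure and withdrawal means average 3 time points each. CPM use the same scaling, and log2 CPM a prior count of 2. Symbols and GRCh37 positions come from GENCODE v44lift37, and levels between genes are per kb of merged exon. The members and the gene lists were chosen with earlier results of these data known. All 8 genes are described in each comparison; from each further list, genes past both thresholds at 2 or more of the 6 times are named, at most 5 per list by the size of the day 21 change; CD24, ADORA3 and PECAM1 were not matched. Tools were edgeR 4.0.16, limma 3.58.1 and DESeq2 1.42.0 in R 4.3.3, and pandas 2.3.3, scipy 1.17.1, numpy 2.4.6 and matplotlib 3.10.9 in Python 3.11.15. The model was tested on simulated data. Alternatives were DESeq2's size factors (RLE), no filter, DESeq2's Wald test, a replicate block, separate fits per time point, each replicate left out, the libraries of over 10% mitochondrial counts left out or as a covariate, and an adjusted p alone.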

Additional observations from a re-analysis of the deposited data

Results flagged for a closer look

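NT5E stood out because its response differed between the exposure and the withdrawal times by a test of the difference itself. The log2 fold change was 2.91 ± 0.22 in the exposure mean and 1.43 ± 0.22 in the withdrawal mean, a difference of -1.48 ± 0.3 (edgeR adjusted p = 0.00346).

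NECTIN2 stood out because all 3 IL-1β libraries lay below the mean of the untreated libraries at day 15 of exposure (log2 fold change -0.39 ± 0.4) and all 3 lay above it at day 30 after withdrawal (0.18 ± 0.4). The single libraries overlapped between the groups at both times, with 68.8, 73.0 and 28.0 against 72.0, 72.3 and 78.3 CPM and with 75.3, 72.0 and 69.3 against 84.2, 26.6 and 79.4 CPM. The lowest library at each time had a high mitochondrial share. Neither value passed the test (edgeR adjusted p = 0.641 and 0.92), and the difference between these times was not tested.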

How the results depend on the processing

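With each time point fitted separately, the count of the 8 genes past both thresholds was 2 at day 6 of exposure and 0 at days 6 and 15 after withdrawal. With the high-mitochondrial libraries left out it was 2 at day 6 and 4 at day 15 of exposure, 0 at day 15 after withdrawal and 4 in the withdrawal mean, and with the covariate 4 at day 6 after withdrawal. At an adjusted p alone it was 4 at each exposure time, 4 and 3 at days 6 and 15 after withdrawal, and 5 in the exposure and 5 in the withdrawal mean. For day 30 after withdrawal against day 21 it was 1 with DESeq2, with the replicate block, with the mitochondrial covariate and with the covariate and block together. With 1 replicate number left out of all groups the count ranged from 1 to 2 at day 6, 2 to 4 at day 15 and 1 to 3 at day 21 of exposure, from 0 to 3, 0 to 2 and 0 to 1 at days 6, 15 and 30 after withdrawal, from 1 to 3 in the withdrawal mean and from 0 to 1 for the difference of the means. The CD274 log2 fold change at day 6 after withdrawal no longer passed in the separate fit (2.09) or without the libraries of high mitochondrial share (1.93). Over the omissions of a replicate it ranged from 1.6 to 2.33, 2.39 to 2.72 and 1.56 to 2.19 at days 6, 15 and 21 of exposure and from 1.86 to 2.3 at day 6 after withdrawal. The cause of these losses was not tested, and the separate fits and omissions also held fewer libraries.

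Apart from the galectin-9 sum, the directions that turned were of log2 fold changes that did not pass. Without the libraries of high mitochondrial share CD276 gave -0.02 at day 21 and -0.11, 0.11 and -0.15 at days 6, 15 and 30 after withdrawal, PVR gave 0.16 on day 15 of exposure and 0.11 on day 15 of withdrawal, the LGALS9 difference of means was -0.4, and NECTIN2 gave 0.02 at day 21, -0.06 and -0.17 at days 15 and 30 after withdrawal, 0.04 and -0.17 in the exposure and withdrawal means and -0.21 in their difference. CD276 at day 30 after withdrawal was -0.01 with RLE scaling and -0.02 with DESeq2. With the mitochondrial covariate, without and with the block, NECTIN2 gave -0.09 and -0.1 at day 6, 0.25 and 0.26 at day 21, -0.09 and -0.09 at day 15 after withdrawal, -0.05 and -0.06 in the withdrawal mean and -0.04 and -0.04 in the difference, and the LGALS9 difference was -0.03 and -0.02. With 1 replicate number left out, the ranges that crossed 0 were -0.06 to 0.07, -0.07 to 0.24, -0.24 to 0.1 and -0.16 to 0.21 for CD276 at day 21 and at days 6, 15 and 30 after withdrawal, -0.08 to 0.1 for its withdrawal mean, -0.04 to 0.28 for the LGALS9 difference, -0.11 to 0.15 and -0.14 to 0.02 for PVR on day 15 of exposure and of withdrawal, and -0.14 to 0.39, -0.18 to 0.4, -0.18 to 0.08 and -0.01 to 0.3 for NECTIN2 at days 15 and 30 after withdrawal, in the exposure mean and in the difference. With the 3 galectin-9 copies summed, the withdrawal ratio turned from -0.68 to 0.07 on the log2 scale, while the withdrawal mean of LGALS9 alone had passed.

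Same-numbered libraries deviated together in 14 of 18 pairs at a correlation over 0.1 (range -0.34 to 0.72). Since 4 pairs did not reach it and the labels state no shared batch or culture, the numbers were not treated as pairing in the main fit. They did serve to match libraries for the likeness to CD274. With the replicate block 1 count changed, given above, and no value of a single gene lost its call. Of the exposed libraries, 14 of 18 correlated best with the control of their own number. At the depth of these libraries CD274, PDCD1LG2 and LGALS9 rest on 78 counts or fewer per library, which limits their precision.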
